A study of Mus musculus with 2 samples.

Results

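CpG-poor promoter regions that belong to 1 gene made up 2940 of the 24882 accessible regions of mouse blood neutrophils, or 11.8%, and lay at 2550 protein-coding genes. ATAC-seq was the assay: a transposase cuts and tags DNA wherever it is not tightly packed. Neutrophils are short-lived phagocytes that circulate in blood and enter infected tissue early. The series held 1 group, neutrophils of peripheral blood from adult C57BL/6J mice aged 5 to 6 weeks, untreated as far as the labels say, with 50000 cells in each of 2 libraries, biological replicates 1 and 2. The labels name no sorting step, leave the sex open, and give both replicates the same donor record, so the spread between them may be technical.

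The members were chosen from the peak list that the authors made from both replicates, which holds 33147 peaks and which they called conservative. Overlapping peaks were merged, and each region took the summit of its highest peak. A region was kept where that summit lay within 1 kb of a start site of exactly 1 protein-coding gene. In addition, the sequence 500 bp to either side of the nearest such site held less than 0.6 of the CpG expected from its C and G content (the CpG ratio) or a GC share under 0.5. Of the members, 1857 met the CpG criterion only, 199 the GC criterion only and 884 both. The regions most like them were 6337 single-gene promoter regions that met neither criterion, called CpG-rich here. The remaining regions were 13238 distal ones, 1378 at promoters of more than 1 protein-coding gene and 989 at promoters of noncoding genes only.

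CpG is scarce in most of the mouse genome because methylated cytosine in this pair mutates readily. Promoters of broadly active genes usually keep many CpG pairs, in CpG islands, while promoters with few are more often those of genes used in particular cell types. In neutrophils, PU.1, an ETS-family factor, and the C/EBP factors bind promoters and enhancers of the myeloid program, and many genes of host defence have CpG-poor promoters.

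With 1 group of 2 libraries there was no comparison between conditions, and no test was made. Values are counts, shares and medians, and the intervals are 95% Wilson intervals, which cover counting error only, since regions are not replicates. The depth is unknown because no read counts were used. The list of replicate 1 gave 27709 merged regions and that of replicate 2 gave 14548. Markers of other blood cells were partly open at their promoters: 6 of 6 for B cells, 2 of 6 for T cells, 1 of 6 for monocytes (Ly6c2), 2 of 6 for NK cells, 2 of 6 for platelets, 1 of 6 for erythroid cells, and 0 of 6 for eosinophils, basophils and mast cells. Of the 12 neutrophil markers 9 were open (Csf3r, Cxcr2, Il1r2, Itgam, Itgb2, Mmp8, Retnlg, S100a8 and S100a9), and Fpr1, Ly6g and Mmp9 were not. The part of B cells in the results was not tested.

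Sequences at the summits show what CpG-poor promoters of these cells look like. Each window runs from 50 bases before to 50 bases after the summit, read 5′ to 3′ on the strand of the gene from the RefSeq GRCm38.p6 assembly, which is the mm10 build of the lists. Windows were drawn from members outside predicted genes, with at most 30 bases in an annotated exon and with 1 chromosome left out, so stronger members with the same motif may be left out. The first set holds the strongest such member with a given motif, with every match of that motif in capitals. The motif is CCAAT, the element bound by NF-Y, at Vbp1, ACTACANTT, part of the element bound by ZNF143, at Zfp738, GGGCGG, bound by SP1, at Trim21, GAAANNGAA, the core of the interferon response element (ISRE), at Trim30d, and GAGGAAGT, the form that PU.1 prefers, at Ttc1. Matches were sought on both strands, so some are printed as the reverse complement.
Vbp1, chrX:75514191-75514291, plus strand: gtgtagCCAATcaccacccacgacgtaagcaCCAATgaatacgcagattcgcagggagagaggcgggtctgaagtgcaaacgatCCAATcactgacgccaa
Zfp738, chr13:67683528-67683628, minus strand: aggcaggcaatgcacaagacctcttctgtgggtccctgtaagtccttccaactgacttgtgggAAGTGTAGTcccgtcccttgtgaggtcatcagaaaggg
Trim21, chr7:102565479-102565579, minus strand: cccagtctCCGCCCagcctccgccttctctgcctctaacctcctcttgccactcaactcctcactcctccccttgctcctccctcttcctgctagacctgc
Trim30d, chr7:104507872-104507972, minus strand: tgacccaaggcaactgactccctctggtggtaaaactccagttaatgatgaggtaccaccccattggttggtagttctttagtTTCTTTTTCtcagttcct
Ttc1, chr11:43747997-43748097, minus strand: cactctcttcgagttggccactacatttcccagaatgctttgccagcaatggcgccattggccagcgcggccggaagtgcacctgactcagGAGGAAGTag

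The second set was drawn in the same way among the genes of the neutrophil and immune lists described further on; Was and Cd300lf, with stronger RUNX members than Il1r2, had more exon bases. These were added after the values were seen. They carry GAGGAAGT at Aim2, TTNNGCAA, the pattern of C/EBP factors, at Clec4e, TGTGGTT, the RUNX pattern, at Il1r2, the ISRE pattern at Trim30a and GGGANTTTC, a pattern of NF-kB, at Pglyrp1. All summits in both sets lay 27 to 94 bp upstream of an annotated start site, and at most 24 bases of any window fell in an annotated exon.
Aim2, chr1:173420475-173420575, plus strand: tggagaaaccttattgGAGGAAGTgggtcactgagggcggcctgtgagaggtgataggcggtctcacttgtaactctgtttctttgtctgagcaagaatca
Clec4e, chr6:123289902-123290002, minus strand: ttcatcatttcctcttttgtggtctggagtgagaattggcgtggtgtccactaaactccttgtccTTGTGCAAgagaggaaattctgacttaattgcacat
Il1r2, chr1:40084600-40084700, plus strand: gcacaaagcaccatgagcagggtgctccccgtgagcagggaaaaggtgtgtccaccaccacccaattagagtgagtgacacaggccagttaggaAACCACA
Trim30a, chr7:104465216-104465316, minus strand: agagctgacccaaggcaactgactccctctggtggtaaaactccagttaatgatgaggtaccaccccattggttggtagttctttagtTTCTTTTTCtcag
Pglyrp1, chr7:18884536-18884636, plus strand: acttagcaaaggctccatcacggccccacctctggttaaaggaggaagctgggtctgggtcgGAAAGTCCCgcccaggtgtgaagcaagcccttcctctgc

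The Trim30a and Trim30d windows, from 2 neighbouring copies of an antiviral gene, share an identical run of 96 bases. Reads from such a stretch may be placed at either copy, so their values cannot be read as those of separate promoters. Zfp738 and its neighbour Zfp65 share a run of 64 bases around the ZNF143 pattern.

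Each peak carries a signal value from the authors, a score left undefined in the sources used here. It was lower at CpG-poor than at CpG-rich promoter regions. Its median in the pooled list was 10.8 in members, with quartiles of 8.01 and 14.5, and 13.3 in CpG-rich regions, with quartiles of 9.65 and 16.9. Distal regions had a median of 10.3, and all regions one of 11.1. In the lists of replicates 1 and 2, values at members had medians of 10.5 and 11.6, against 12.1 and 13.7 at CpG-rich regions. Members were 445 bp wide at the median and CpG-rich regions 590 bp. The list of replicate 1 by itself, under the same rule, gave 3131 CpG-poor regions, or 11.3% of its regions, and that of replicate 2 gave 1789, or 12.3%. The share was 11.8 ± 0.707% (SD, n = 2), while that of CpG-rich regions was 30.35 ± 9.83% and that of distal regions 47.1 ± 12.9%. CpG-poor promoters thus took up a like share of both lists, although the lists differed in length and in their share of CpG-rich and distal regions.

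Of the members, 1733 (58.9%, interval 57.2 to 60.7%) overlapped a peak in the lists of both replicates that passed the irreproducible discovery rate (IDR), a measure of how well peak ranks repeat. The share was 82.3% of CpG-rich regions (81.3 to 83.2%), 40.7% of distal regions, and 56.5% of all regions. The shortfall lay in replicate 2: its list held 59.7% of members and that of replicate 1 held 92.1%. A further 211 members were in neither list. In the less strict lists of the authors, 94.7% of members were found in both replicates, against 98.6% of CpG-rich regions. Across the 1733 members, signal values in replicates 1 and 2 had a Spearman rho of 0.838, given as a description because both lists come from the same genome and the same cell type.

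The difference in recovery was present among regions of like signal value. With all regions sorted into 4 equal groups by pooled signal value, 19.4% of members and 33.6% of CpG-rich regions in the lowest group were in both replicate lists. In the second group the shares were 49.8% of members and 75.4% of CpG-rich regions, and in the third 78.4% and 93.9%. In the highest group they were 96.4% of members and 99.3% of CpG-rich regions. Distal regions were below members in all 4 groups, with 11.8, 29.2, 58.4 and 86.4%. Members stood between CpG-rich and distal regions in each group.

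**Figure D1:**
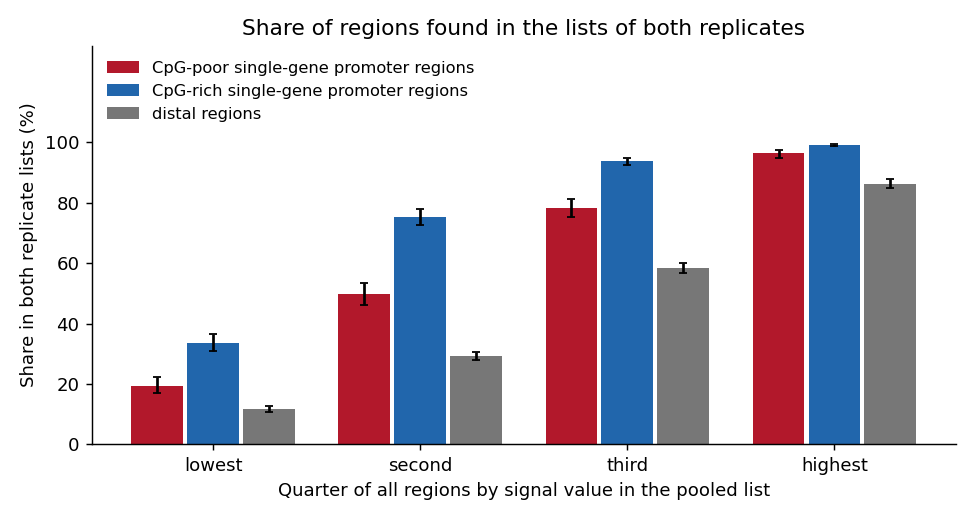
Share of regions found in the IDR lists of both replicates (vertical axis, percent) by group of pooled signal value (horizontal axis, 4 equal groups of all regions) for CpG-poor promoter, CpG-rich promoter and distal regions; bars are shares and lines are 95% Wilson intervals. CpG-poor promoters lay between CpG-rich promoter and distal regions in each group, at 19.4% in the lowest and 96.4% in the highest.

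Summits of members sat just upstream of the start site. Of them, 67.1% lay upstream of the nearest annotated start (65.4 to 68.8%), against 77.7% in CpG-rich regions (76.6 to 78.7%). Within 100 bp of the start lay 58.4% of member summits and 67.6% of CpG-rich ones. A longer tail went with CpG-poor promoters: 25.1% of members had their summit more than 300 bp from the start, against 11.9% of CpG-rich regions. The nearest start was the 5′-most one of its gene for 47.1% of members and 69.2% of CpG-rich regions, so most members were at an internal start site of the annotation. Members at a 5′-most start were in both replicate lists in 66.9% of cases, and those at an internal start in 51.9%. Annotated starts differ in quality, and the share of starts that belong to a protein-coding transcript was 69.5% in members and 83.9% in CpG-rich regions. With the 5′-most start of each gene alone, 2001 regions met the rule and 56.1% of their summits lay upstream, against 69.3% in CpG-rich regions.

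**Figure D2:**
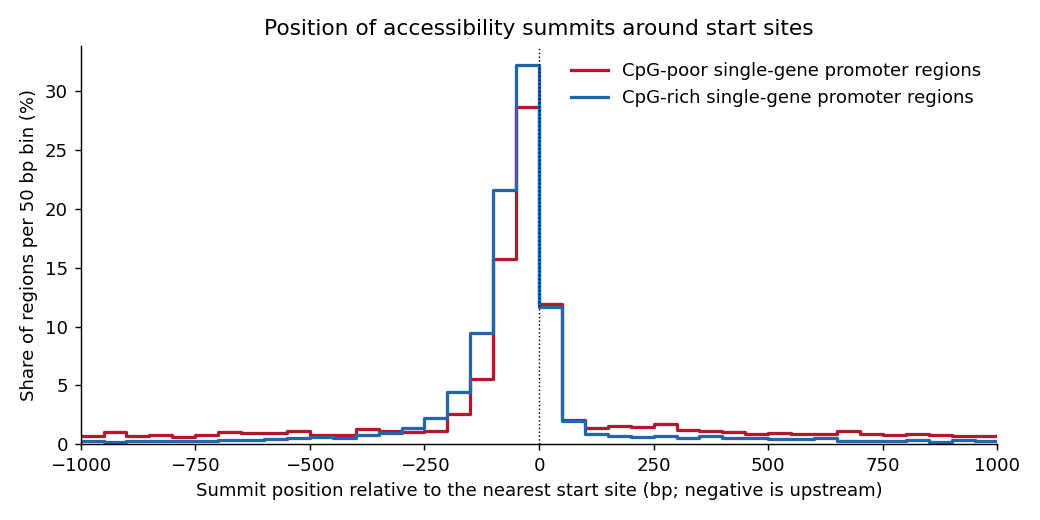
Share of summits (vertical axis, percent per 50 bp bin) by distance from the nearest start site (horizontal axis, bp, negative upstream) for CpG-poor and CpG-rich promoter regions. Both peak just upstream of the start, and CpG-poor promoters have more summits far from it, 25.1% against 11.9% beyond 300 bp.

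None of the 12 strongest members was in the neutrophil and immune lists described further on. Vbp1, a subunit of the prefoldin chaperone, had the highest signal value, 29.5 in the pooled list, with 27.0 in replicate 1 and 23.9 in replicate 2; its window above holds CCAAT 3 times. Zfp738, a zinc finger gene of chromosome 13, had 26.7 pooled, 24.1 in replicate 1 and 22.5 in replicate 2. Trim21, a cytosolic antibody receptor, had 26.6 pooled, 24.6 in replicate 1 and 22.0 in replicate 2. The other 9 of the 12 highest members with a named gene were Platr25, Glipr1l3, Depdc1a, Gosr1 (a SNARE protein of the Golgi), Chm (a Rab escort protein), Fam45a, Fbxo46, Mctp1 and Nicn1. Chm differed most between the replicates among these, with 25.5 in replicate 1 and 17.1 in replicate 2. All 12 were in both replicate lists, and their summits lay 13 to 80 bp upstream of the start.

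Signal value was higher at members with a higher CpG ratio and lower at those with a higher GC share. From promoters with a CpG ratio under 0.2 (447 regions) through 0.2 to 0.4 (995) and 0.4 to 0.6 (1299) to 0.6 or more (199, members through their GC share), the median signal value was 9.43, 9.73, 11.9 and 15.7. The share in both replicate lists was 45, 50.3, 67.6 and 77.4% in the same order. Spearman's rho between signal value and CpG ratio was 0.277 across the 2940 members and −0.068 across the 6337 CpG-rich regions. Between signal value and GC share it was −0.136 and −0.291. These are descriptions over regions that share libraries. The band of 0.6 or more holds only regions with a low GC share, so CpG ratio and GC share cannot be told apart there. Members near the edges of the rule had these pooled signal values. Just inside a ratio of 0.6, Ctsd, Pdcd6 and Cwc25 had 7.45, 18.03 and 16.4, and just outside it Spag1, Smyd3 and Mfsd4b3 had 17.1, 6.54 and 19.8. Just inside a GC share of 50 percent, Zfp141, Hist1h4c and Trmt12 had 15.7, 14.2 and 8.10, and just outside it Nuf2 had 28.8 and the 2 regions of Alyref2 had 5.07 and 13.4. Just inside 1 kb from a start, Sema6b, Siah3 and Nat9 had 5.71, 7.46 and 6.59, and just outside it Fkbp3, Gm572 and Myom3 had 12.9, 12.1 and 7.41.

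The strings of PU.1, C/EBP, RUNX and AP-1 were more frequent at CpG-poor than at CpG-rich promoters. Within the CpG-poor ones their shares were highest in the band where CpG was rarest. Windows 1 kb away from members that overlap no region also exceeded CpG-rich windows for C/EBP, RUNX and AP-1, but not for PU.1. Median GC of the summit windows was 57.4% in members and 65.3% in CpG-rich regions. By band of rising CpG ratio it was 52.5, 54.5, 61.4 and 57.4%. The part of base composition in these shares was not tested. In all, 23 strings were searched on both strands of the windows, and those described here require no CpG unless said otherwise, although the open positions (N) of the C/EBP, ISRE, ETS-IRF and STAT strings allow one. The PU.1 and ETS strings share GGAAGT and cannot match at the same place. GAGGAAGT, the PU.1 string, was in 171 of 2940 member windows (5.82%, 5.03 to 6.72%), against 1.5% of CpG-rich windows, 8.82% of distal windows and 0.714% of windows 1 kb away from members that overlap no region. In the list of replicate 1 the shares were 6.2% of CpG-poor and 1.57% of CpG-rich regions, and in that of replicate 2 they were 5.70% and 1.38%. By CpG ratio, the share of members with the PU.1 string was 13.6% under 0.2, 7.84% from 0.2 to 0.4, 2.08% from 0.4 to 0.6 and 2.51% from 0.6. The order of the first 3 bands held in both replicate lists, with 11.6, 8.50 and 2.68% in replicate 1 and 14.9, 9.65 and 1.76% in replicate 2, while the intervals of the first 2 bands overlapped in both.

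Strings of C/EBP, RUNX, AP-1 and ISRE also had their highest share under a ratio of 0.2, with intervals that overlapped those of the next band for all 4, and those of NF-kB and STAT did not follow this order. TTNNGCAA (C/EBP) was in 5.44% of member windows, 2.56% of CpG-rich windows and 4.35% of windows 1 kb away, and its share was 10.5, 6.53, 3 and 4.52% by band of rising ratio. TGTGGTT (RUNX) was in 3.33% of member windows, 1.09% of CpG-rich and 2.44% of those 1 kb away; by band it was in 5.59, 4.72, 1.77 and 1.51%. For both C/EBP and RUNX the intervals of members and of windows 1 kb away overlapped. TGANTCA (AP-1, the dimers of Fos and Jun proteins) was in 4.39%, against 1.42% and 2.46%, with 6.71, 5.23, 3.39 and 1.51% by band. GAAANNGAA (ISRE) was in 3.54%, against 1.5% and 2.89%, and its interval of 2.93 to 4.27% overlapped that of the windows 1 kb away. GGGANTTTC (NF-kB) was in 13 members, or 0.442%, against 0.3% and 0.375%, with intervals that overlapped. Any of 8 myeloid and inflammatory strings (the 6 named, an ETS-IRF composite GGAANNGAA and a STAT pattern TTCCNGGAA) was present in 23.6% of members, 10.1% of CpG-rich regions and 31.7% of distal regions. At a CpG ratio under 0.2 it was 40.5% of members. Distal regions were not split by CpG content, so their share is no like comparison for this band. The share of the 8 strings together in windows 1 kb away was not taken.

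Strings of broadly used promoter factors had the opposite order. CCAAT (NF-Y) was in 20.2% of member windows, against 27.7% of CpG-rich windows and 13.2% of windows 1 kb away. It was in 14.3% of members with a ratio under 0.2, close to the share 1 kb away, and in 25.3% from 0.4 to 0.6. GGGCGG (SP1) was in 25% of members and 47.0% of CpG-rich regions, and CCGGAAGT (the CpG-holding form of the ETS motif) was in 2.99% and 6.53%. Both strings hold a CpG, which the rule selected against, so their order is partly set by how the members were chosen. The ETS string was in 14.1% of members with a ratio of 0.6 or more and in 0 of 447 under 0.2, where the upper bound is 0.852%. Ttc1, printed above, holds both the PU.1 and the ETS string within 1 window and has a CpG ratio of 0.737.

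The ZNF143 string stood apart from both groups. ACTACANTT, which has no CpG, was in 68 members (2.31%, 1.83 to 2.92%), against 1.10% of CpG-rich regions (0.875 to 1.39%) and 0.375% of windows 1 kb away. In the lists of replicates 1 and 2 the shares were 2.20 and 2.91% of CpG-poor regions, against 1.14 and 1.22% of CpG-rich ones. Zfp738 and Zfp65 both hold the string within their shared run of 64 bases, so the 68 windows are not all separate sequences. How many others are such copies was not counted. Members with the string had a median signal value of 15.3, and members without it 10.7. In the 294 strongest members it was in 24 windows, or 8.16%, and in the 294 weakest in 0, with an upper bound of 1.29%. CCAAT was in 38.8% of the 294 strongest and 11.2% of the 294 weakest, whereas the PU.1 string was in 3.40% and 6.46%, with overlapping intervals.

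**Figure D3:**
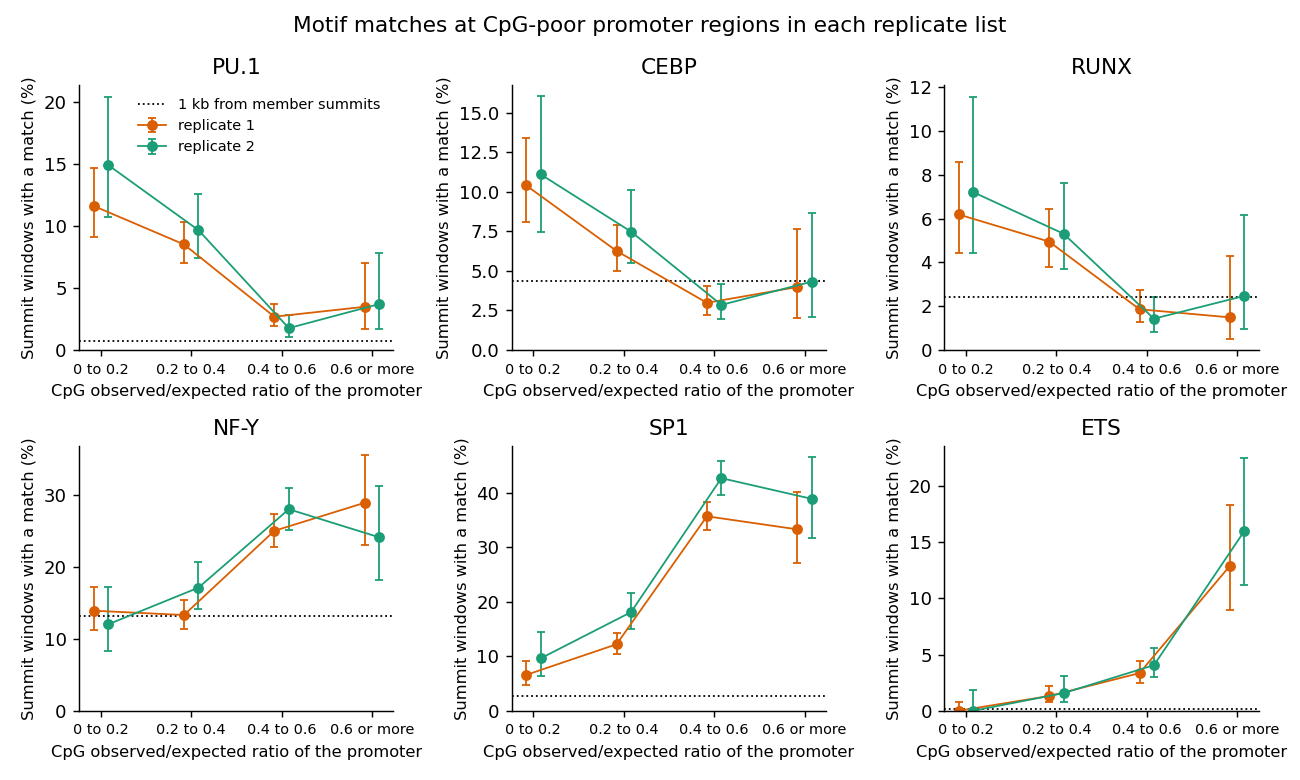
Share of CpG-poor promoter regions with a motif string within 50 bp of the summit (vertical axes, percent) by CpG observed/expected ratio of the promoter (horizontal axes), for 6 strings in the lists of replicates 1 and 2; points are shares, lines 95% Wilson intervals, and the dotted line is the share in windows 1 kb from members. PU.1, C/EBP and RUNX strings are most frequent under a ratio of 0.2 and NF-Y, SP1 and ETS strings above 0.4; the SP1 and ETS strings hold a CpG.

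A TATA box was rare. TATAAA starting 40 to 20 bp upstream of the start was at 23 of 2840 member start sites (0.81%, 0.54 to 1.21%), against 0.798% of CpG-rich start sites and 1.78% of 48643 CpG-poor start sites with no region within 1 kb. Its share in members differed from that of CpG-rich sites by less than the counting error and was under that of the CpG-poor sites with no region. The dinucleotide CA across the start, the usual initiator, was at 18.9% of member sites, 15.5% of CpG-rich sites and 15.7% of the CpG-poor sites with no region. Clec4e, the macrophage-inducible lectin Mincle that recognises mycobacterial glycolipid, was the strongest member with a TATA box, which starts 30 bp upstream of the start. The window from 70 bp upstream to 30 bp downstream is printed with TATAAA in capitals, and its first bases overlap the Clec4e window printed earlier, C/EBP pattern included.
Clec4e, chr6:123289841-123289940, minus strand: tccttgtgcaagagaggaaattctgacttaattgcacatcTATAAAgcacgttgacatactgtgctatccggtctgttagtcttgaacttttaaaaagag

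Most genes of the mature neutrophil and phagocyte signalling lists were open at a CpG-poor promoter. No sorting step is named, and B cell genes had a member in 16 of 22 cases (72.7%). Openness in neutrophils and in other cells of the sample cannot be told apart here. Of 44 mature neutrophil genes with at least 1 CpG-poor start site, 28 had a member region (63.6%, 48.9 to 76.2%), and of 32 such genes of phagocyte signalling, 26 had one (81.2%, 64.7 to 91.1%). The background, over all 18849 protein-coding genes with at least 1 CpG-poor start site, was 13.5%. Among genes whose start sites are all CpG-poor, the shares were 63.4% of mature neutrophil genes and 85.7% of phagocyte signalling genes, against 15.8% of 10702 genes in all. In the list of replicate 2 alone, 16 mature neutrophil genes met the rule, and in that of replicate 1 alone 28 did. The median signal value was 10.7 in the mature neutrophil list and 9.57 in the phagocyte signalling list, beside 10.8 over all members. The median CpG ratio was 0.194 at mature neutrophil genes and 0.242 at phagocyte signalling genes, beside 0.408 over all members.

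Receptors of mature neutrophils spanned a wide range. Clec4e had a signal value of 20.3 in the pooled list, 19.1 in replicate 1 and 16.2 in replicate 2. Cd300lf, an inhibitory receptor for lipids, had 17.8, 18.2 and 10.7, with a PU.1 and a RUNX string at the summit. Tlr4, the receptor for bacterial endotoxin, had 16.3, 15.5 and 14.7. Ptafr, the receptor for platelet-activating factor, had 15.7, 14.8 and 11.6. All 4 were in both replicate lists, and in 4 of 4 the value was higher in replicate 1, whose scale need not match that of replicate 2. At the low end, Csf3r, the receptor for granulocyte colony-stimulating factor, had 7.07 pooled and 6.61 in replicate 1, and Cxcr2, the receptor for neutrophil chemokines, 5.88 and 5.49. Neither was in the IDR list of replicate 2. Alox5 and Ccrl2 had a CpG-poor start site and no promoter region.

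Phagocyte signalling genes spanned 5.12 to 21.2 in the pooled list, beside 4.08 to 20.3 for the mature neutrophil list. Samsn1, an adaptor that dampens signalling, led with 21.2 pooled, 18.8 in replicate 1 and 20.2 in replicate 2. Was, the actin regulator lost in Wiskott-Aldrich syndrome, had 17.9, 17.0 and 13.3. Fcer1g, the shared signalling chain of Fc receptors, had 12.7, 11.7 and 10.9, and Pik3r5, a regulatory subunit of phosphoinositide 3-kinase gamma, 12.5, 11.9 and 11.1. Spi1, the gene of PU.1, had 11.4, 10.2 and 10.9 at its stronger member region. Of the 26 genes with a region, 22 were found in both replicate lists. Arhgdib and Btk had no promoter region.

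Genes of the granule lists had a member in smaller shares, and the interval of the primary granule list held the background of 13.5%. Whether each listed gene, Gstm1 among them, encodes a protein stored in granules was not checked. Primary granules form at the promyelocyte stage and hold myeloperoxidase and serine proteases, while secondary and tertiary granules form later. Of 13 primary granule genes, 3 had a member (23.1%, 8.18 to 50.3%): Ctsc, which activates the proteases, with 16.4 pooled, 16.1 in replicate 1 and 16.3 in replicate 2, Bpi with 10.3, 10.4 and 7.13, and Gstm1 with 10.2, 8.59 and 10.03. Mpo, Elane, Prtn3 and Ctsg had no promoter region at all. Of 21 secondary and tertiary granule genes, 8 had a member (38.1%, 20.8 to 59.1%). The collagenase Mmp8 had 15.6, 13.9 and 11.6, the protease Adam8 15.4, 14.0 and 14.4, Ceacam1 13.7, 12.4 and 12.6, and the haptoglobin gene Hp 9.76, 8.28 and 9.25. Camp and Cd177 had none, and neither had Ltf, Lcn2, Ngp or Mmp9.

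Most interferon response genes and innate sensors had a member in the pooled list, beside 13.5% of all genes with a CpG-poor start site. Of 46 interferon response genes, 31 had a member (67.4%, 53.0 to 79.1%), of which 17 were in both replicate lists. Trim30a had 22.5 pooled, 21.9 in replicate 1 and 19.3 in replicate 2. Usp18, which removes ISG15, had 14.6, 13.3 and 15.1, Irf9, the DNA-binding subunit of the interferon-activated complex ISGF3, 14.4, 13.4 and 14.1, and Slfn5 13.9, 12.5 and 12.7. Cxcl10 and Ifi44 had no promoter region. Of 29 Toll-like receptor and inflammasome genes, 17 had a member (58.6%, 40.7 to 74.5%), of which 11 were in both replicate lists. Aim2, the sensor of cytosolic DNA, had 21.8, 20.4 and 17.9, and its window printed above holds the PU.1 string. Nlrp12 had 18.9, 16.2 and 14.9, and Nlrp1a 16.7, 16.2 and 12.3. Il18 and Irak3 had no member but were open in another class of promoter region.

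Receptors of the paired and lectin families had a member at 25 of 49 genes (51.0%, 37.5 to 64.4%), beside the background of 13.5%. In this list, 1 further gene was open in another class. All 25 had a CpG ratio under 0.4 at a member. Over all 2940 members, 447 had a ratio under 0.2 and 995 one from 0.2 to 0.4. Clec4a3 had 19.9 pooled, 19.2 in replicate 1 and 14.0 in replicate 2, and Clec2d had 17.5, 16.0 and 13.7. Cd200r1 and Cd200r3 had no promoter region. Cytokine and NF-kB target genes had a member in 12 of 30 cases (40%), of which 7 were in both replicate lists. A further 4 genes of this list were open in another class. Ptgs2, the inducible cyclooxygenase, had 13.5, 12.2 and 12.1, the chemokine gene Cxcl2 12.96, 12.2 and 11.8, Tnfaip2 10.7, 9.72 and 11.3, and Icam1 9.88, 9.39 and 8.77. Il1b had 4.45 in the pooled list and was in neither replicate list. Ccl2 and Ccl22 had no promoter region, and neither had Tnf, Il6 or Il10. Of 32 chemokine genes with a CpG-poor start, Cxcl2 was the only one with a member.

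**Figure D4:**
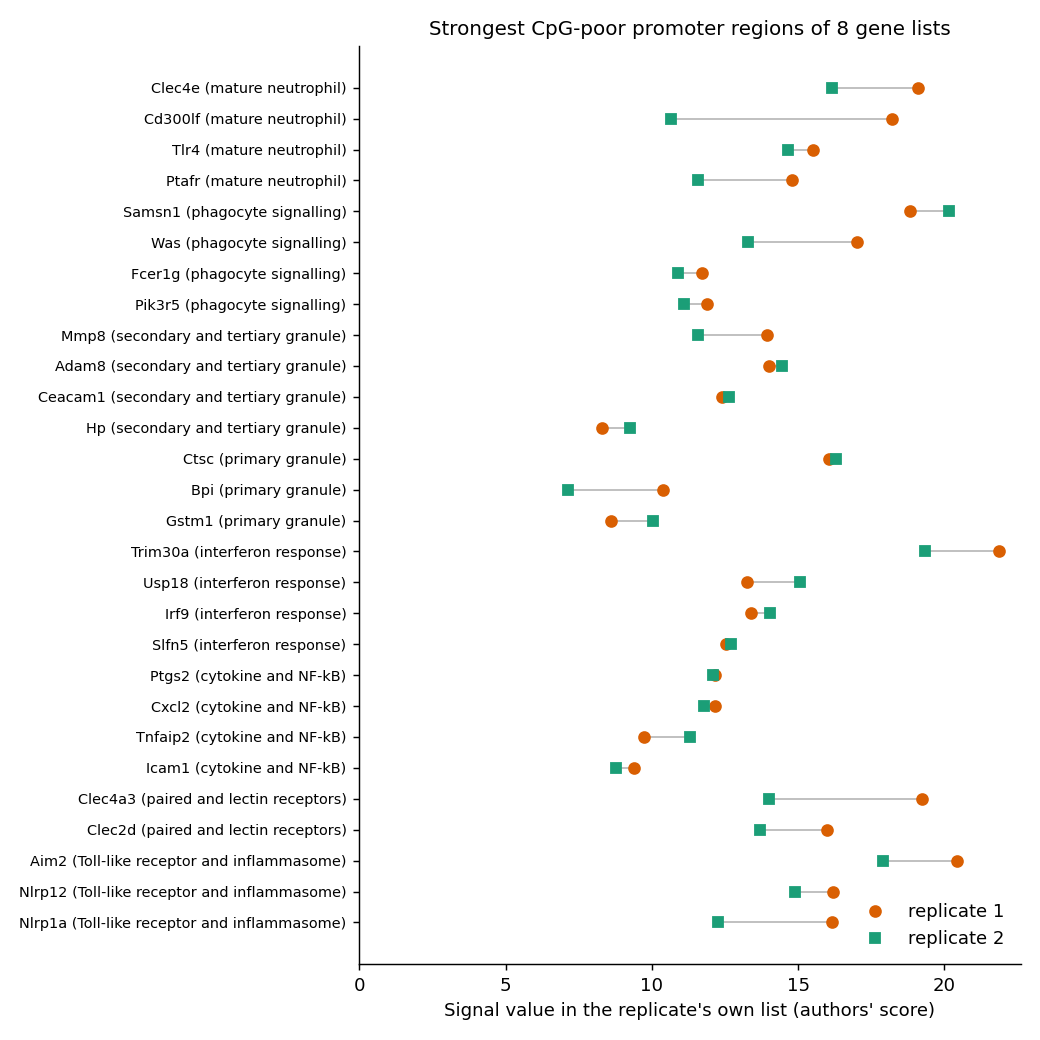
Signal value (horizontal axis, the authors' score in the list of each replicate) of the strongest CpG-poor promoter regions of 8 gene lists (vertical axis, gene and list) in replicates 1 and 2; each line joins the 2 values of a gene. Trim30a has the highest value in replicate 1, 21.9, and Samsn1 in replicate 2, 20.2.

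Other blood cell types differed widely from each other. Of 22 B cell genes, 16 had a member (72.7%, 51.8 to 86.8%), 12 of them in both replicate lists. Cr2, the complement receptor of B cells and follicular dendritic cells, had 24.2 pooled, 23.7 in replicate 1 and 17.0 in replicate 2, more than any gene of the neutrophil and immune lists in the pooled list, and Bank1 had 18.7, 18.5 and 12.5. Of 19 genes of dendritic cells and MHC class II antigen presentation, 12 had a member (63.2%), led by H2-DMa with 17.4, 16.2 and 18.01 and H2-Ob with 13.6, 12 and 12.4. This list was split. All of its MHC class II genes had a member, Ciita and Cd74 included, and so had Tcf4 and Itgax. The dendritic cell genes Zbtb46, Batf3, Xcr1, Clec10a, Cd209a and Siglech had no promoter region, and Irf8 was open in another class. T cell genes had one in 5 of 24 cases (20.8%), led by Cd3d with 18.8, 16.9 and 17.8 at a summit 685 bp downstream of its nearest start site. Shares were 14.3% for NK cell genes, 8.70% for monocyte and macrophage genes, 6.67% for eosinophil, basophil and mast cell genes, 13.3% for platelet genes and 10.5% for erythroid genes. Outside blood they were 12.5% for skeletal muscle, 15.4% for neurons and 0 of 18 for hepatocytes (upper bound 17.6%). The intervals of all these lists, from T cells to hepatocytes, held that background. Mitosis genes had a member in 2 of 33 cases, Dlgap5 and Cdk1, while 30 were open in another class. The median signal value of B cell genes with a member was 10.8, beside 10.7 in the mature neutrophil list and 10.8 over all members. In bulk libraries, accessibility in other cells of the sample and accessibility in the neutrophils themselves cannot be told apart.

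**Figure D5:**
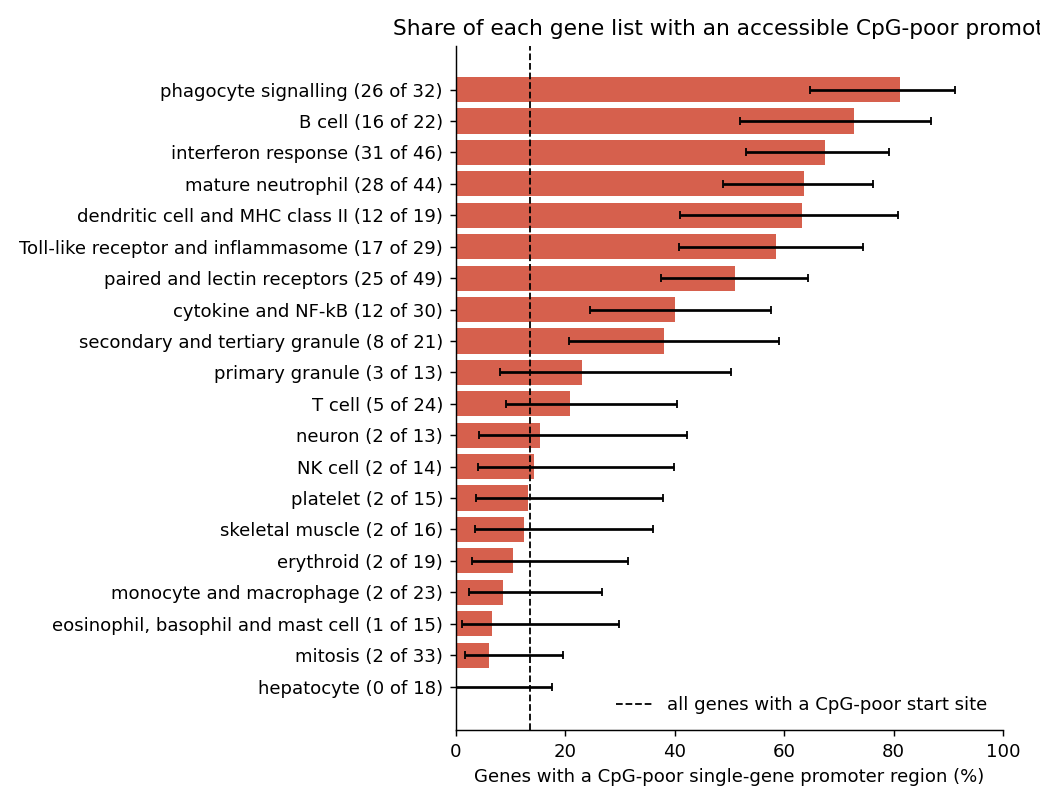
Share of genes with a CpG-poor start site that have a CpG-poor promoter region (horizontal axis, percent) for 20 gene lists (vertical axis, with counts); bars are shares, lines 95% Wilson intervals, and the dashed line is the 13.5% of all such genes. Phagocyte signalling genes are at 81.2%, B cell genes at 72.7% and mature neutrophil genes at 63.6%, with intervals that overlap.

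Gene families gave shares over larger numbers of genes. Olfactory receptor genes, nearly all with CpG-poor starts and used in sensory neurons, had a member in 4 of 1135 cases (0.352%), vomeronasal receptor genes in 0 of 329 (upper bound 1.15%), and keratin genes in 1 of 113 (0.885%). Zinc finger genes with the symbol Zfp had one in 100 of 327 cases (30.6%, 25.8 to 35.8%), with a median signal value of 15.2, and 71 of the 100 were in both replicate lists. Mitochondrial ribosomal protein genes had one in 14 of 45 cases (31.1%), with a median of 16.8, and guanylate-binding protein genes in 6 of 10. Solute carriers, at 14.5%, were near the background of 13.5%.

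Some members lay in runs. With members whose summits lay up to 50 kb apart joined, 34 runs held 4 or more genes and 186 members in all, while 1730 runs held 1 gene. The longest by genes was the MHC class II stretch, chr17:34092201-34399165, with 20 members at 14 genes, 15 of them in both replicate lists, among them H2-Aa, H2-Ab1, H2-Eb1, H2-DMa, Tap2 and Psmb8. On chromosome 13, runs of zinc finger genes included chr13:67682998-67831455, with 7 members at 6 genes and a median signal value of 14.9, Zfp738 and Zfp65 among them. On chromosome 7, chr7:104217932-104370491 held 7 members at Trim6, Trim34a, Trim5, Trim12a, Trim12c and Trim30b, with a median of 15.0. The run chr19:34500774-34608182 held 6 members at Lipa, Ifit2, Ifit3, Ifit1bl1 and Ifit3b, the Ifit genes being antiviral RNA-binding proteins. Copies within these runs resemble each other, and reads from shared stretches may be placed at the wrong copy.

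Most genes had 1 member: 2207 genes had 1, 305 had 2 and 38 had 3 or more. Lmna, the gene of the nuclear lamins A and C, had the most with 5, whose signal values ran from 2.32 to 17.7 over 26381 bp. Adcy7, Glipr1, Iqsec1 and Plec were among those with 4, and their strongest regions had 9.47, 18.01, 9.56 and 9.57. Of the 2550 genes, 439 (17.2%) also had a CpG-rich region at another start site. Within 50 kb, CpG-poor regions had a mean of 2.11 distal regions in the list of replicate 1 and 0.833 in that of replicate 2, against 1.70 and 0.627 for CpG-rich regions.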

How the data were processed

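ATAC-seq peak lists of 2 libraries of mouse blood neutrophils were used, on mm10 (GRCm38), per the file headers. Aligner, peak caller, versions and the shift of reads for the transposase: not given in the sources used here. For each peak the deposited lists give a signal value, a score that neither labels nor headers define, and a −log10 p, which is the authors' value; a deposited ranked list also gives −log10 IDR. Scores served to describe peaks and rank them inside a single list. No read counts were used, so depth is unknown.

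Overlapping peaks of the pooled conservative list were merged, and each region was assigned to a class from GENCODE M21 start sites and the RefSeq GRCm38.p6 sequence, with coordinates counted from 1. Overlap with a replicate list needed 1 bp. Motif strings were searched within 50 bp of the summit on both strands. CpG ratios ignored unknown bases, and 3 members have some. Python 3.11.15, NumPy 2.4.6, SciPy 1.17.1, pysam 0.24.0 and Matplotlib 3.10.9 were used, and the merging, the classes and the motif search were tested on simulated data. The pooled conservative list holds 33147 peaks.

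The members, the 20 gene lists (526 entries, 525 matched), the 22 families, the motifs and the alternatives were chosen with earlier results of these data known, so no list or direction is independent evidence. The text names the 12 strongest members outside predicted genes, for the neutrophil and immune lists the 4 strongest members and the first 2 genes without one in alphabetical order, for other lists the 2 strongest, the genes with the most members, and those nearest each threshold. Genes named beyond this were chosen after their values were seen. The genes with only CpG-poor start sites were added as a second background after the data were seen. With 1 group of 2 libraries there was no comparison between conditions, and no test was made. Alternatives were other peak lists, promoter widths, start sites, CpG criteria and motif settings, and each replicate alone.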

Additional observations from a re-analysis of the deposited data

How the results depend on the processing

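No paired analysis was possible because the series has 1 group. Of 70 recalculations of 7 results, 42 moved by less than the SD of the values from each replicate list alone (counts by at most 1.5 times). The recalculations from 1 replicate list set this SD and are themselves among the 70. For the share in both replicates the SD was 29.9, as each list counts its own regions. The 42 are thus no measure of robustness. The number of members was 1776 with peaks at or above the median signal value and 884 where both CpG criteria were required, and 1789 to 3131 from 1 replicate list. The share in both replicates was 94.7% with the less strict lists and 56.1 to 98.4% from 1 replicate list, where the region's own list is counted. The median signal value was 9.53 with the optimal list, 13.6 with the stronger peaks and 9.84 to 11.5 from 1 replicate list. The share of summits upstream was 70% with the stronger peaks, 70.6% within 500 bp, 56.1% with the 5′-most start only and 66.3 to 70.4% from 1 replicate list. The share with a TATA box was 0.907, 0.909, 1.28, 0.925, 1.37 and 0.986% with the stronger peaks, the 5′-most start only, both criteria, a CpG window of 250 bp, TATANA, and starts 45 to 15 bp upstream, and 0.859 to 0.967% from 1 replicate list. The share with the PU.1 string was 5.46, 5.05, 9.05, 6.99, 7.55 and 23.4% with the stronger peaks, the 5′-most start only, both criteria, a CpG window of 250 bp, a search up to 100 bp from the summit, and GGAAGT, and 5.70 to 6.2% from 1 replicate list. Mature neutrophil genes with a member numbered 15 with the stronger peaks, 15 with both criteria, and 16 to 28 from 1 replicate list. The cause of these changes was not tested. The PU.1 share was higher, and the median signal value and the share of upstream summits lower, in CpG-poor than in CpG-rich regions under each list, width, start-site and CpG setting. The share in both replicates was lower in each but the list of replicate 2 alone, at 98.4% against 97.7%. The TATA share was higher in CpG-poor regions except within 500 bp, at 0.805% against 0.818%. With 2 replicates and no read counts, neither depth nor differences between animals can be judged.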
